A study of Mus musculus with 15 samples.

Results

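The 10 genes described here are the Notch ligands Dll1, Dll3, Dll4, Jag1 and Jag2, the receptors Notch1, Notch2 and Notch3, and the Fringe genes Lfng and Mfng. They were taken by gene symbol, matched to Ensembl IDs, from a table of 43432 genes, and all 10 passed the filter on low counts. PolyA RNA was counted per gene in 15 libraries of mouse embryonic fibroblasts (MEF), connective-tissue cells grown from embryos, 12 of them from cells infected with lentiviruses that carry Ngn1 or Ngn3 under doxycycline control. Ngn1 and Ngn3 are the genes Neurog1 and Neurog3, proneural transcription factors that start neuronal programmes. The 5 groups of 3 libraries (a, b and c) were Ngn3 at day 13, Ngn1 at day 13, Ngn3 at day 1 (24 h), Ngn1 at day 1, and control (Ctrl). All cells were grown as fibroblasts, and the protocol replaces the fibroblast medium by a neuronal one on day 2. Whether the controls received a virus, doxycycline or the neuronal medium, and when they were collected, is not given in the sources used here. The effect of the factor against Ctrl therefore cannot be told apart, at either day, from that of virus, doxycycline or time. At day 13 it cannot be told apart from that of the medium either. The share of infected cells is not given.

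Notch signalling passes between touching cells. A Delta-like or Jagged ligand on one cell binds a Notch receptor on its neighbour, the receptor is cut, and its inner part enters the nucleus and switches on repressors of the Hes and Hey families. In the developing nervous system, proneural factors switch on Delta-like ligands in cells that are becoming neurons, which holds their neighbours back. Fringe enzymes add a sugar to the receptor and shift its response between Delta-like and Jagged ligands.

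Libraries held 14869015 to 17859844 counts. Neurog1 had 16252 to 80443 counts in each library labelled Ngn1, and Neurog3 had 20393 to 98008 in each library labelled Ngn3. Neither factor had more than 1 count in a control or more than 13 counts in a library of the other factor, so the libraries carried the factor of their label. Fibroblast marker RNA was present in every group: the summed level of 10 fibroblast markers was 11254 to 36578 CPM (the count scaled to library size) in Ngn3 and 11349 to 37185 CPM in Ngn1 at day 13, 3886 to 5322 and 3046 to 5225 CPM at day 1, and 3505 to 5540 CPM in Ctrl. Of these markers the collagens Col1a1, Col1a2 and Col3a1 rose at day 13 with both factors, as did Dcn and Lum. Thy1 (26.9 ± 21.6 CPM in Ngn3, 25.5 ± 9.57 CPM in Ngn1 and 371 ± 110 CPM in Ctrl) and Prrx1 fell with both factors. At day 1 Col3a1 rose with both factors, while Pdgfra, Prrx1 and Thy1 fell with both. The summed level of 10 macrophage markers was 268, 27.1 and 16.5 CPM in libraries a, b and c of Ngn3 at day 13. It was 29.1 to 110 CPM in Ngn1 at day 13 and 149 to 231 CPM in Ctrl. At day 1 it was 33.5 to 37.7 CPM in Ngn3 and 55.6 to 75.2 CPM in Ngn1. The sum of 10 glial markers was 47.0 to 62.5 CPM in Ngn3 and 54.5 to 62.7 CPM in Ngn1 at day 13, against 28.3 to 38.4 CPM in Ctrl. The summed level of 10 neuronal markers was 673 to 886 CPM in Ngn3 and 664 to 1581 CPM in Ngn1 at day 13, against 83.8 to 99.4 CPM in Ctrl. At day 1 it was 204 CPM in library b of Ngn3 and 212 CPM in library b of Ngn1, and 73.5 to 100 CPM in the a and c libraries. Of these neuronal markers Map2 and Stmn2 fell at day 1 with both factors, and no other was called then. In such bulk RNA, fewer cells that express a gene and less of its RNA per cell cannot be told apart.

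The promoters of 6 genes are shown. Dll1, Jag2, Lfng and Notch2 were the genes called higher at day 1 with both factors, and Dll3 and Dll4 were the ligands near 0 in Ctrl and at day 1 that were called higher at day 13. Each sequence runs from 250 bases before to 50 bases after the RefSeq start (build GRCm38.p6), in the direction of the gene. They lie at chr17:15376883-15377182 (Dll1, minus strand), chr12:112929446-112929745 (Jag2, minus strand), chr5:140607091-140607390 (Lfng, plus strand), chr3:98013288-98013587 (Notch2, plus strand), chr7:28301736-28302035 (Dll3, minus strand) and chr2:119325534-119325833 (Dll4, plus strand). Capitals mark CANNTG, the E-box to which basic helix-loop-helix factors bind, searched on both strands.
Dll1: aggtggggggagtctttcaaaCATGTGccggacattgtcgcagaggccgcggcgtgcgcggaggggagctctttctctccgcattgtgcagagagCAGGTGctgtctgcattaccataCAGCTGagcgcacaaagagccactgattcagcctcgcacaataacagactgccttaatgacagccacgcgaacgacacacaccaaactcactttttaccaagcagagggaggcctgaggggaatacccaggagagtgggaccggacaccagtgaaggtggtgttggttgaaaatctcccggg
Jag2: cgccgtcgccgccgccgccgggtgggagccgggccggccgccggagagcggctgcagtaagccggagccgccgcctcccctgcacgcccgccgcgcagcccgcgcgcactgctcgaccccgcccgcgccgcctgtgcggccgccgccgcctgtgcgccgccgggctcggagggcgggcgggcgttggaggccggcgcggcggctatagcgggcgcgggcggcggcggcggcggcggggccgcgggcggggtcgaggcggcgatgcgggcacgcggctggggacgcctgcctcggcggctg
Lfng: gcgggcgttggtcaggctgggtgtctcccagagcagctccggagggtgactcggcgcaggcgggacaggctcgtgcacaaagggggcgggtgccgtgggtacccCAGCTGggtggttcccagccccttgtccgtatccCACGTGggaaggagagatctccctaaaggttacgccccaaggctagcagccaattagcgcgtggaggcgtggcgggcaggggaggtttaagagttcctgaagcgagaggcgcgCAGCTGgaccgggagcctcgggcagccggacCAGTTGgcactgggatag
Notch2: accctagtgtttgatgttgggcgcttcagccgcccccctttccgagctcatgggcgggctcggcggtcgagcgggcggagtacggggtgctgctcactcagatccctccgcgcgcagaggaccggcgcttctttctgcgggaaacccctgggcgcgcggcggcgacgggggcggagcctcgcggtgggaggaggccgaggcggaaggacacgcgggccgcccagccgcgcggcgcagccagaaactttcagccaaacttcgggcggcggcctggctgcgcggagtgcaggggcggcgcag
Dll3: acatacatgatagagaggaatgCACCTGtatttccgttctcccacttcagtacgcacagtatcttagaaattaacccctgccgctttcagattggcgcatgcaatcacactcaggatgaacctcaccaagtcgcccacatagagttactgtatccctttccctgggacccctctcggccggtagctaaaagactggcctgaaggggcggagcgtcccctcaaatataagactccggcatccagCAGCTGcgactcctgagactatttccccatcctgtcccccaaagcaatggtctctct
Dll4: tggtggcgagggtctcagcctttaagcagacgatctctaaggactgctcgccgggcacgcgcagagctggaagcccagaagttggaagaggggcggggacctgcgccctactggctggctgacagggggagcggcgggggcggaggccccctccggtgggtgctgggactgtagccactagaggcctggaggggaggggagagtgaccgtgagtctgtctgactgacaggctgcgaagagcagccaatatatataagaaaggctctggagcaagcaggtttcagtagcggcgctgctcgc
The E-box letters occurred 3 times in this Dll1 promoter, 4 times in that of Lfng and 2 times in that of Dll3, and not in those of Jag2, Notch2 and Dll4. RefSeq gave 10 promoters for 9 of the 10 genes, all but Mfng, and 5 of these 10 held CANNTG, against 72.3% of all 32851 promoters of the same length. CAGATG, a form of CANNTG, was in 0 of the 10 and in 17.2% of all promoters. TGGGAA, a motif of the Notch effector Rbpj, was in 1 of the 10, that of Lfng, and in 25.6% of all promoters. A match is a description of letters and not a binding site.

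Dll1 and Jag2 were the ligands that rose at day 1 against Ctrl, and by day 13 all 5 ligands stood above Ctrl. Over the 10 genes, 5 were called higher and 0 lower in Ngn3 at day 1 against Ctrl, where 7.17% of all 16872 genes tested were called higher and 5.58% lower. In Ngn1 at day 1, 4 were called higher and 0 lower, where 6.76% of all genes were called higher and 5.42% lower. Calls rest on edgeR's quasi-likelihood test, with the p-value adjusted over all genes tested (Benjamini-Hochberg) and a threshold of 0.05, and rose or fell is written of called genes only. The median log2 fold change of the 10 genes was 1.39 in Ngn3 and 1.47 in Ngn1, against 0.02 over all genes in each comparison. These medians use fitted values, also for Dll4 and Mfng where a group had 3 counts or fewer. At day 13, 9 were called higher in Ngn3 and 8 in Ngn1, with 0 lower, where 31.2% and 32.5% of all genes were called higher and 26.4% and 26.8% lower. The medians at day 13 were 3.56 and 3.95, against 0.10 over all genes in each. Dll3, Dll4 and Mfng had 9 counts or fewer in every library outside day 13, so they passed the filter only through day 13. At day 13 they could therefore be called only higher, and they are part of these counts and medians. Dll1 and Jag2 had 9 counts or fewer in each control and passed through the infected groups. The comparisons with Ctrl share its 3 libraries. Without the 4 b libraries of the infected groups, which had the highest receptor levels, the numbers called were 7 and 8 at day 13 and 4 and 3 at day 1 (Ngn3 and Ngn1), an alternative added after seeing the data. At day 1 that fit called 1313 and 1280 of 17091 genes, against 2152 and 2054 of 16872 in the fit used here. Its share over all genes at day 13 is not given here. Scaling by library totals moved the share of all day-13 calls that were higher to 67.5% in Ngn3 and 67.3% in Ngn1, against 54.1% and 54.8% with the normalization used here. It moved the all-gene medians to 0.40 in each and changed none of the calls of the 10 genes against Ctrl.

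**Figure D1:**
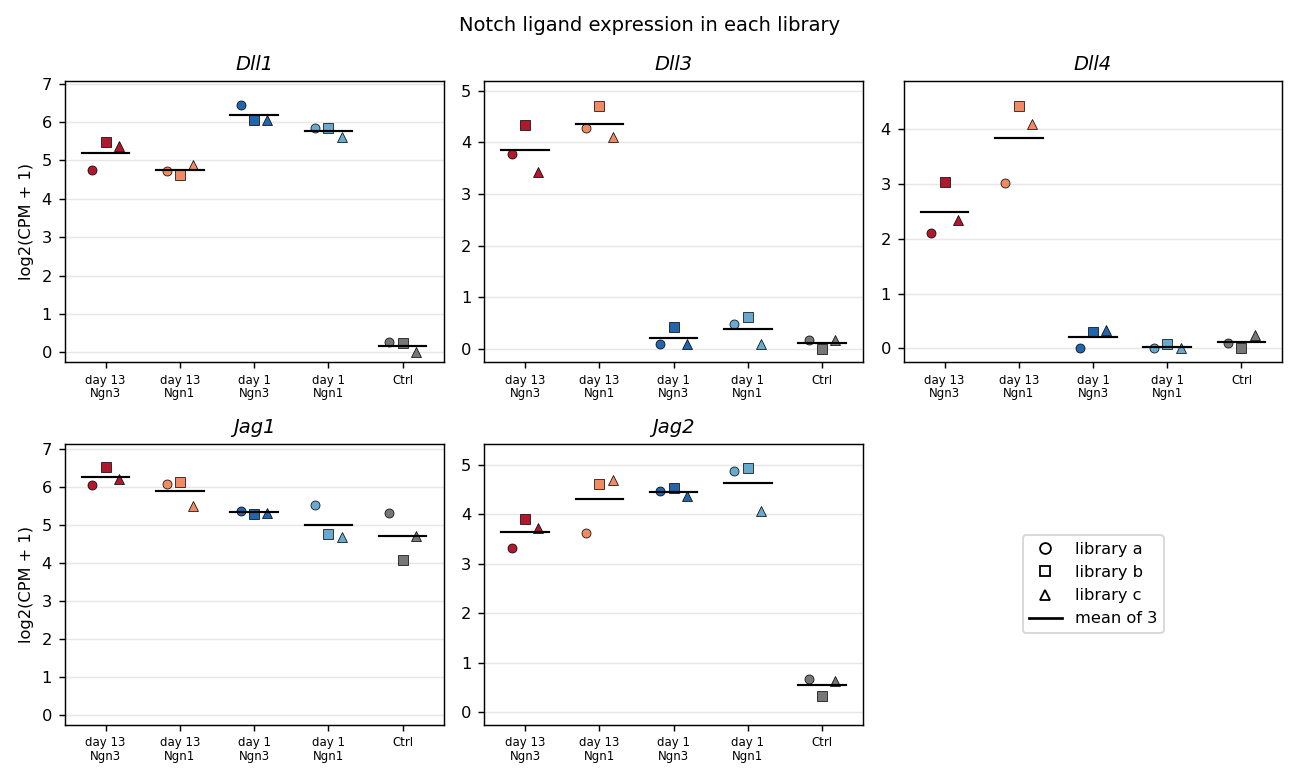
The level of each Notch ligand in each library as log2(CPM + 1), by group, with circles, squares and triangles for libraries a, b and c and a line at the mean of 3. Dll1 and Jag2 stand above Ctrl in all 12 infected libraries, Dll3 and Dll4 stand above all other libraries in the 6 of day 13, and Jag1 is present in every library.

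Dll1 encodes the Delta-like ligand most closely tied to proneural factors, and had the largest fold change of the 10 genes at day 1 (ENSMUSG00000014773, chromosome 17, 15367354 to 15376872, minus strand, mm10). It had 26.0, 43.7 and 40.1 CPM in Ngn3 and 25.6, 23.7 and 28.5 CPM in Ngn1 at day 13. At day 1 it had 86.4, 65.1 and 64.7 CPM in Ngn3 and 56.2, 56.1 and 48.1 CPM in Ngn1. The Ctrl libraries had 0.199, 0.192 and 0 CPM, which are 3, 3 and 0 counts. Every infected library lay far above every control, and every day-1 library lay above every day-13 library. Dll1 rose against Ctrl by a log2 fold change of 9.06 ± 0.42 (SE) in Ngn3 at day 1 (adjusted p = 7.18e-09, n = 3 in each group) and by 8.63 ± 0.42 in Ngn1 (adjusted p = 1.41e-08). The difference from Ctrl at day 13 was 8.09 ± 0.42 in Ngn3 (adjusted p = 8.92e-09) and 7.59 ± 0.42 in Ngn1 (adjusted p = 1.01e-08). Without Ctrl library c, which had 0 counts, these were 8.47 and 8.02 at day 1 and 7.47 and 6.97 at day 13 (Ngn3 and Ngn1). Between the days it fell, with a log2 fold change of day 13 over day 1 of -0.98 ± 0.25 in Ngn3 (adjusted p = 0.00397) and -1.04 ± 0.25 in Ngn1 (adjusted p = 0.0024). An antisense noncoding gene, A930024N18Rik, overlaps 867 bases of its exons and had at most 34 counts in any library, against 456 or more for Dll1 in each infected library.

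Jag2 encodes a Jagged ligand, and it rose at day 1 with Dll1 (ENSMUSG00000002799, chromosome 12, 112907819 to 112929776, minus strand). It had 8.95, 14 and 12.1 CPM in Ngn3 and 11.3, 23.4 and 24.8 CPM in Ngn1 at day 13. The day-1 values were 21, 22.0 and 19.6 CPM in Ngn3 and 28.3, 29.4 and 15.7 CPM in Ngn1. The controls had 0.596, 0.256 and 0.543 CPM. All 12 infected libraries were above all 3 controls, and the 4 infected groups overlapped in part. The log2 fold change against Ctrl was 5.46 ± 0.42 in Ngn3 at day 1 (adjusted p = 9.29e-07) and 5.70 ± 0.42 in Ngn1 (adjusted p = 6.92e-07). At day 13 it was 4.63 ± 0.41 in Ngn3 (adjusted p = 4.88e-07) and 5.39 ± 0.42 in Ngn1 (adjusted p = 1.57e-07). Day 13 was lower than day 1 in Ngn3 (-0.83 ± 0.32, adjusted p = 0.0343), a call that did not hold with scaling by library totals (-0.59, adjusted p = 0.146) or without library a (-0.68) or c (-0.87) of day 13 or library a (-0.83), b (-0.82) or c (-0.88) of day 1. In Ngn1 the difference between the days was not called (-0.30 ± 0.31, adjusted p = 0.42).

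Dll3 encodes a divergent ligand that in the mouse sits largely inside the cell and damps Notch signalling in the cell that makes it (ENSMUSG00000003436, chromosome 7, 28293553 to 28302238, minus strand). It had 12.7, 19.2 and 9.72 CPM in Ngn3 and 18.3, 25.2 and 16.2 CPM in Ngn1 at day 13. On day 1 there were 0.0694, 0.348 and 0.0633 CPM in Ngn3 and 0.395, 0.530 and 0.0666 CPM in Ngn1, which are 1 to 9 counts a library. The controls had 0.132, 0 and 0.121 CPM. The 6 day-13 libraries were all above the other 9, and the day-1 and Ctrl libraries overlapped. Dll3 rose at day 13 against Ctrl by 7.24 ± 0.68 in Ngn3 (adjusted p = 7.58e-07) and 7.76 ± 0.68 in Ngn1 (adjusted p = 4.13e-07). Against day 1 it rose by 6.32 ± 0.62 in Ngn3 (adjusted p = 1.5e-06), or 7.53 without library b of day 1, and 5.86 ± 0.58 in Ngn1 (adjusted p = 1.39e-06). At day 1 the difference from Ctrl was not called in Ngn3 (0.92 ± 0.96, adjusted p = 0.616) or Ngn1 (1.90 ± 0.86, adjusted p = 0.188), and in Ngn3 it was -0.32 without library b.

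Dll4, a Delta-like ligand best known from blood vessels, was also a day-13 gene (ENSMUSG00000027314, chromosome 2, 119325784 to 119335962, plus strand). It had 3.28, 7.25 and 4.10 CPM in Ngn3 and 7.07, 20.6 and 16.2 CPM in Ngn1 at day 13. At day 1 it had 0, 0.232 and 0.253 CPM in Ngn3 and 0, 0.0589 and 0 CPM in Ngn1. The controls had 0.0662, 0 and 0.181 CPM. No library of day 1 or Ctrl had more than 4 counts, while those of day 13 had 59 to 399. The rise against Ctrl was 5.74 ± 0.79 in Ngn3 (adjusted p = 2.15e-05) and 7.32 ± 0.79 in Ngn1 (adjusted p = 2.44e-06), or 6.91 and 8.48 without Ctrl library c. The rise against day 1 was 4.81 ± 0.71 in Ngn3 (adjusted p = 5.31e-05). In Ngn1, with 1 count over the day-1 libraries, the ratio of day 13 to day 1 was 700-fold, and counting error alone spans 125 to 27670 at 95% (adjusted p = 1.75e-06). The summed level of 10 endothelial markers was 17.6 to 20.7 CPM in Ngn3 and 14.5 to 19.8 CPM in Ngn1 at day 13. It was 8.58 to 15.7 CPM in Ngn3 and 7.89 to 12.6 CPM in Ngn1 at day 1. The controls had 55.9, 13.6 and 16.3 CPM in a, b and c. Only 5 of these markers passed the filter on low counts. Against Ctrl at day 13, Tek rose and Emcn fell with both factors and Egfl7 fell in Ngn3. From day 1 to day 13 Kdr and Tek rose and Cdh5 and Emcn fell with both factors. The part of endothelial RNA in the Dll4 level was not tested. Tie1 had 0 counts in both groups of day 13, and Cldn5 had 0 counts in Ngn3, 1 count in Ngn1 and 0 counts in Ctrl. The antisense gene Gm14207 overlaps 214 bases of the exons of Dll4 and had 64 counts over the Ngn3 libraries and 189 over the Ngn1 libraries at day 13, against 267 and 845 for Dll4.

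Jag1 encodes the ligand that MEF already carried (ENSMUSG00000027276, chromosome 2, 137081456 to 137116644, minus strand). It had 65.1, 90.0 and 73.0 CPM in Ngn3 and 66.4, 68.5 and 43.7 CPM in Ngn1 at day 13. The day-1 values were 40.3, 38.0 and 38.9 CPM in Ngn3 and 44.5, 25.9 and 24.8 CPM in Ngn1. The controls had 38.6, 15.8 and 24.9 CPM, a wide spread. The day-13 libraries all lay above the controls, and the day-1 libraries of each factor overlapped them. The rise at day 13 against Ctrl was 1.52 ± 0.30 in Ngn3 (adjusted p = 0.000502) and 1.17 ± 0.30 in Ngn1 (adjusted p = 0.0033). Against day 1 it was 0.96 ± 0.29 in Ngn3 (adjusted p = 0.0118), a call lost without library b of day 13 (0.81), and 0.91 ± 0.30 in Ngn1 (adjusted p = 0.0154), lost without library b of day 13 (0.78) or library b (0.76) or c (0.75) of day 1. At day 1 the difference from Ctrl was not called, with a 95% interval of -0.06 to 1.19 in Ngn3 and -0.36 to 0.89 in Ngn1, and in Ngn1 its sign changed without library a (-0.06) or Ctrl library b (-0.02).

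The ligand mix was compared per length, as each gene's CPM per kb of exon divided by the sum over the 5 ligands. That sum was 29.5 ± 6.36 in Ngn3 and 30.0 ± 4.28 in Ngn1 at day 13, 26.9 ± 3.08 and 21.8 ± 3.63 at day 1, and 4.69 ± 2.02 CPM per kb in Ctrl (SD, n = 3). Jag1 made up 96.8% ± 0.494 of the ligand RNA in Ctrl. At day 1 Dll1 was the largest, with 63.3% ± 3.48 in Ngn3 and 58.8% ± 5.41 in Ngn1, and Jag1 held 25.1% ± 2.12 and 24.7% ± 5.24. At day 13 Jag1 was again the largest, with 44.5% ± 2.19 in Ngn3 and 34.2% ± 7.30 in Ngn1. Beside it stood Dll1 with 29.3% ± 4.02 and 20.9% ± 4.29, Dll3 with 16.4% ± 3.75 and 23.1% ± 2.43, and Dll4 with 4.16% ± 0.874 and 12.4% ± 4.92 (Ngn3 and Ngn1). The mixture thus held mainly 1 ligand in Ctrl, Dll1 with Jag1 and Jag2 at day 1, and all 5 ligands at day 13.

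**Figure D2:**
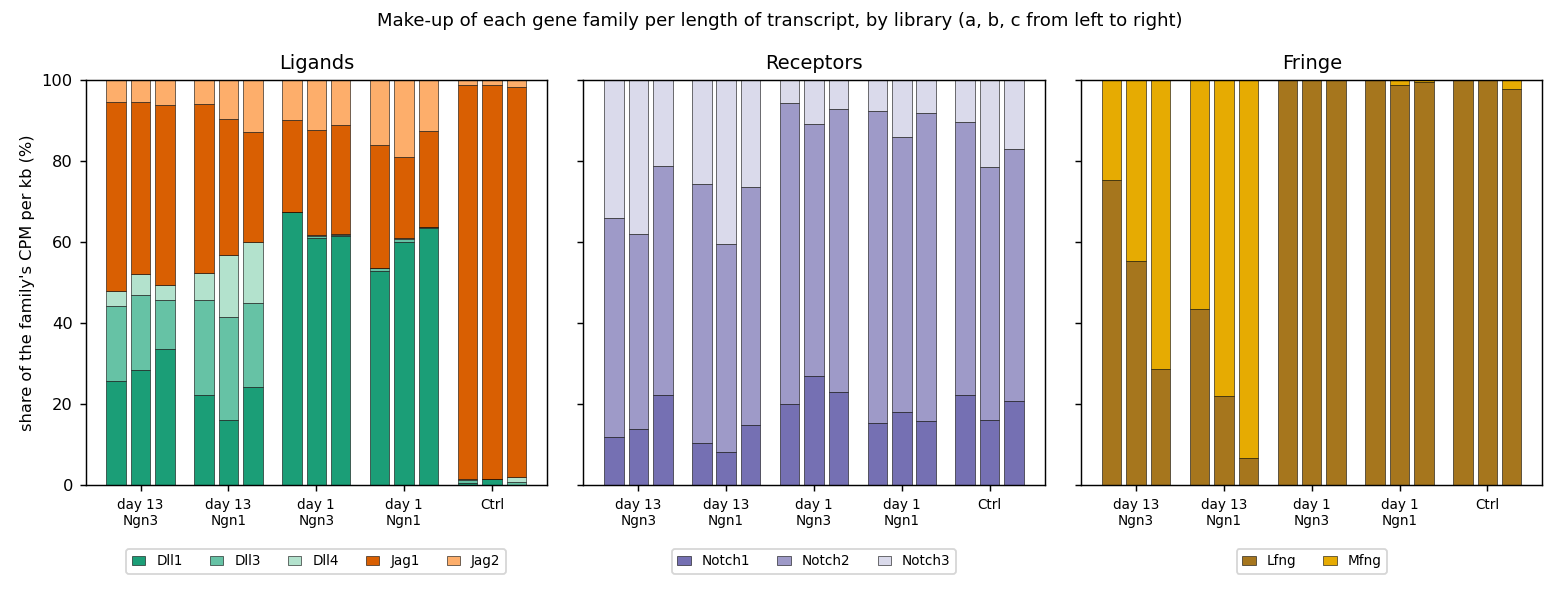
The share of each gene in the summed CPM per kb of its family (ligands, receptors, Fringe), 1 bar per library, by group. Jag1 fills the ligand bars of Ctrl at 96.2% to 97.1%, Dll1 holds 52.9% to 67.3% at day 1, and Mfng appears in the Fringe bars of day 13 at 24.6% to 93.3%.

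All 3 receptors were present in Ctrl, and their fold changes were smaller than those of Dll1 and Jag2. Notch2 had the highest level per length of the 3 receptors in every group, with 52.9% ± 4.29 of the receptor sum in Ngn3 and 58.0% ± 6.24 in Ngn1 at day 13, 68.7% ± 6.07 and 73.7% ± 5.03 at day 1, and 63.9% ± 3.06 in Ctrl. Notch3 held 31.1% ± 8.82 and 30.8% ± 8.32 at day 13, 7.97% ± 2.67 and 9.95% ± 3.56 at day 1, and 16.3% ± 5.60 in Ctrl. In all 4 infected groups library b had the highest level of each of the 3 receptors. At day 1 library b also had the most of the delivered factor, with 3020 CPM of Neurog3 against 1416 and 1293 in a and c, and 3842 CPM of Neurog1 against 2055 and 1083. At day 13 Neurog3 had 1242, 5264 and 5074 CPM and Neurog1 1277, 3144 and 4068 CPM in a, b and c. The day-1 b libraries also had the highest summed neuronal markers, as given above. The part of the factor level or of neuronal RNA in the receptor levels was not tested.

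Notch2 rose at both days with both factors (ENSMUSG00000027878, chromosome 3, 98013527 to 98150361, plus strand). It had 33.0, 104 and 57.3 CPM in Ngn3 and 61.9, 96.9 and 53.6 CPM in Ngn1 at day 13. On day 1 there were 77.0, 121 and 111 CPM in Ngn3 and 94.3, 116 and 74.8 CPM in Ngn1. The controls had 28.7, 27.7 and 29.0 CPM. All 12 infected libraries exceeded all 3 controls, library a of Ngn3 at day 13 by the least. The log2 fold change at day 1 was 1.86 ± 0.34 in Ngn3 (adjusted p = 0.00168) and 1.74 ± 0.34 in Ngn1 (adjusted p = 0.0027). At day 13 it was 1.18 ± 0.34 in Ngn3 (adjusted p = 0.0071), a call lost without library b (0.65, adjusted p = 0.0797), and 1.31 ± 0.34 in Ngn1 (adjusted p = 0.00351). Day 13 against day 1 was not called in Ngn3 (-0.67 ± 0.33, adjusted p = 0.0947) or Ngn1 (-0.43 ± 0.33, adjusted p = 0.279), and in Ngn3 it was called lower without library b of day 13 (-1.19, adjusted p = 0.00538).

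Notch1 was called higher in Ngn3 at both days (ENSMUSG00000026923, chromosome 2, 26457903 to 26516663, minus strand). It had 9.56, 39.2 and 29.8 CPM in Ngn3 and 13.5, 20.3 and 18 CPM in Ngn1 at day 13. At day 1 it had 27.4, 69.0 and 48.7 CPM in Ngn3 and 24.7, 40.9 and 20.5 CPM in Ngn1. The controls had 12.4, 9.48 and 12.9 CPM. The 6 day-1 libraries were above all controls, and at day 13 library a of Ngn3 lay among them. The log2 fold change in Ngn3 was 2.06 ± 0.44 at day 1 (adjusted p = 0.00501) and 1.17 ± 0.43 at day 13 (adjusted p = 0.0284). The day-13 call was lost without library b (0.75) or c (1.05), without Ctrl library a (1.21), b (1.02) or c (1.22), and without the filter on low counts (1.15, adjusted p = 0.0831). In Ngn1 the difference was not called at day 1 (1.31 ± 0.43, adjusted p = 0.0606) or day 13 (0.57 ± 0.43, adjusted p = 0.261), and at day 1 it passed with DESeq2 (1.28, adjusted p = 0.0267), with only the groups compared (1.26, adjusted p = 0.0118) and with the replicate letter as a block (1.22, adjusted p = 0.0281). Day 13 against day 1 was not called in Ngn3 (-0.88 ± 0.42, adjusted p = 0.0852) or Ngn1 (-0.73 ± 0.42, adjusted p = 0.147), and in Ngn3 it was called lower without library b of day 13 (-1.29) or a of day 1 (-1.17).

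Notch3, known from smooth muscle and pericytes, was the receptor that rose at day 13 and not at day 1 (ENSMUSG00000038146, chromosome 17, 32120820 to 32166852, minus strand). It had 15.6, 61.4 and 16.1 CPM in Ngn3 and 18.7, 57.2 and 18.1 CPM in Ngn1 at day 13. The day-1 values were 4.51, 16.0 and 8.54 CPM in Ngn3 and 7.04, 18.1 and 6.0 CPM in Ngn1. The controls had 3.31, 7.18 and 6.03 CPM. Library b stood well above a and c in each infected group, and the day-13 libraries lay above all controls. The rise at day 13 against Ctrl was 2.49 ± 0.66 in Ngn3 (adjusted p = 0.00481), or 1.51 without library b, and 2.51 ± 0.66 in Ngn1 (adjusted p = 0.00452), or 1.71 without library b. Against day 1 it was 1.68 ± 0.64 in Ngn3 (adjusted p = 0.036) and 1.59 ± 0.64 in Ngn1 (adjusted p = 0.043), where leaving out library b of day 1 gave 2.25. Both calls against day 1 were lost without library b of day 13 (0.71 in Ngn3, 0.81 in Ngn1), without library a of day 1 (1.34 and 1.37), without library c of day 1 (1.59 and 1.31), and without the filter on low counts (adjusted p = 0.131 and 0.145). At day 1 the difference from Ctrl was not called, at 0.82 ± 0.65 in Ngn3 (adjusted p = 0.482) and 0.91 ± 0.65 in Ngn1 (adjusted p = 0.449). Of 10 pericyte and smooth muscle markers, 6 fell and 3 rose in Ngn3 at day 13, where 26.4% of all genes fell and 31.2% rose. In Ngn1 6 of these markers fell and 2 rose, where 26.8% of all genes fell and 32.5% rose. Their summed level was 278 to 445 CPM in Ngn3 and 169 to 352 CPM in Ngn1, against 3685 to 6753 CPM in Ctrl. The markers that rose were Abcc9 and Kcnj8 in both, subunits of a potassium channel, and the growth factor receptor Pdgfrb in Ngn3. Their part in the level of Notch3 was not tested.

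**Figure D3:**
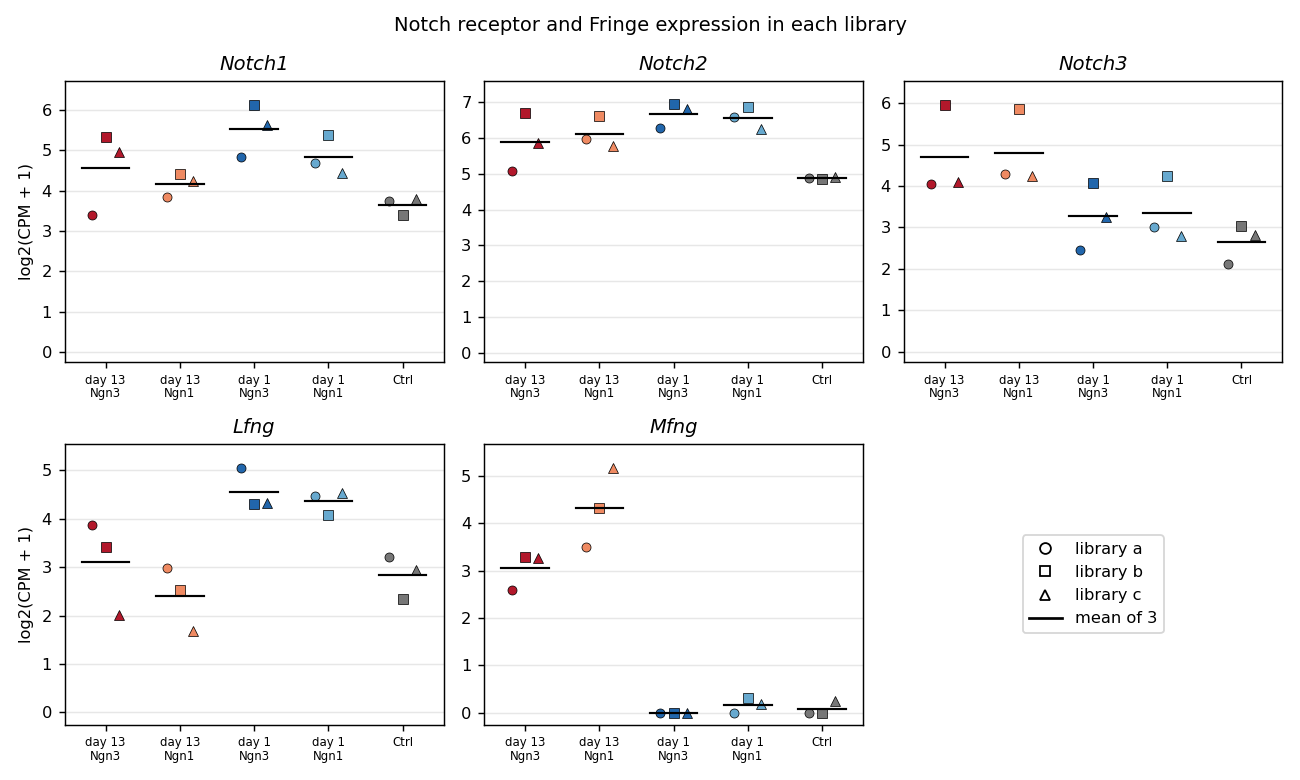
The level of each Notch receptor and Fringe gene in each library as log2(CPM + 1), by group, with circles, squares and triangles for libraries a, b and c and a line at the mean of 3. Library b (squares) is the highest for each receptor in every infected group, and Mfng is near 0 outside day 13.

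The Fringe genes moved apart in time: Lfng rose at day 1 and Mfng at day 13. Lfng encodes the Fringe enzyme best known for favouring Delta-like over Jagged ligands at Notch1 (ENSMUSG00000029570, chromosome 5, 140607320 to 140615545, plus strand). It had 13.7, 9.67 and 3.03 CPM in Ngn3 and 6.96, 4.74 and 2.23 CPM in Ngn1 at day 13. On day 1 there were 32, 18.6 and 19.1 CPM in Ngn3 and 21.2, 15.9 and 22.0 CPM in Ngn1. The controls had 8.28, 4.10 and 6.70 CPM. The day-1 libraries were above all the others, and the day-13 libraries overlapped Ctrl. The log2 fold change at day 1 was 1.87 ± 0.48 in Ngn3 (adjusted p = 0.0161) and 1.63 ± 0.47 in Ngn1 (adjusted p = 0.0339). In Ngn1 the call was lost when any of the 6 libraries was left out (log2 fold change 1.37 to 1.86, adjusted p = 0.0507 to 0.146) or the filter on low counts was (adjusted p = 0.0845), and in Ngn3 when library a (1.57) or Ctrl library b (1.63) or c (1.90) was. Against day 1, day 13 was lower by -1.40 ± 0.47 in Ngn3 (adjusted p = 0.0186), a call lost without library c of day 13 (-1.01) or a of day 1 (-1.10), and by -2.09 ± 0.48 in Ngn1 (adjusted p = 0.00176). At day 13 the difference from Ctrl was not called in Ngn3 (0.47 ± 0.47, adjusted p = 0.41) or Ngn1 (-0.46 ± 0.48, adjusted p = 0.424).

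Mfng, its relative in the same enzyme family, had 5.06, 8.86 and 8.60 CPM in Ngn3 and 10.3, 19.0 and 35.0 CPM in Ngn1 at day 13 (ENSMUSG00000018169, chromosome 15, 78755882 to 78773475, minus strand). At day 1 it had 0, 0 and 0 CPM in Ngn3 and 0, 0.235 and 0.133 CPM in Ngn1. The controls had 0, 0 and 0.181 CPM. The day-13 libraries were all above the other 9, none of which had more than 4 counts. Against the 3 counts over Ctrl, the ratio was 118-fold in Ngn3 (95% counting interval 40.3 to 577, adjusted p = 1.83e-05) and 344-fold in Ngn1 (118 to 1671, adjusted p = 3.35e-06). All 3 of those counts were in Ctrl library c. Against day 1, Mfng was at least 119-fold higher in Ngn3, taking 3 counts over the group as the floor (adjusted p = 1.14e-05), and the log2 fold change in Ngn1 was 7.33 ± 0.78 (adjusted p = 5.43e-06), or 8.18 without library b of day 1. Per length, Mfng was 46.9% ± 23.5 of the sum of Lfng and Mfng in Ngn3 and 75.9% ± 18.4 in Ngn1 at day 13, with the highest share in library c of both (71.4% and 93.3%). The summed neuronal markers of the Ngn1 libraries were 664, 1375 and 1581 CPM in a, b and c, in the order of their Mfng, and those of Ngn3 were 757, 886 and 673 CPM. The part of neuronal RNA in the Mfng level was not tested.

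Day 13 against day 1, summed over the 10 genes, gave 5 called higher and 3 lower in Ngn3, where 28.9% of all genes were called higher and 26.8% lower. In Ngn1 it gave 5 called higher and 2 lower, where 30.5% were called higher and 27.3% lower. In either direction 55.7% of all genes were called in Ngn3 and 57.8% in Ngn1. Dll3, Dll4, Jag1, Notch3 and Mfng were the genes called higher with each factor, and Dll1 and Lfng were called lower with each. Of these, Dll3, Dll4 and Mfng passed the filter only through day 13 and could be called only higher. The medians of the 10 genes were 0.14 in Ngn3 and 0.30 in Ngn1, against 0.07 and 0.08 over all genes. Without the 4 b libraries of the infected groups 6 genes were called in each comparison, and the share over all genes in that fit is not given here. Scaling by library totals moved the share of all calls that were higher to 63.1% in Ngn3 and 65.3% in Ngn1, against 51.9% and 52.8%.

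**Figure D4:**
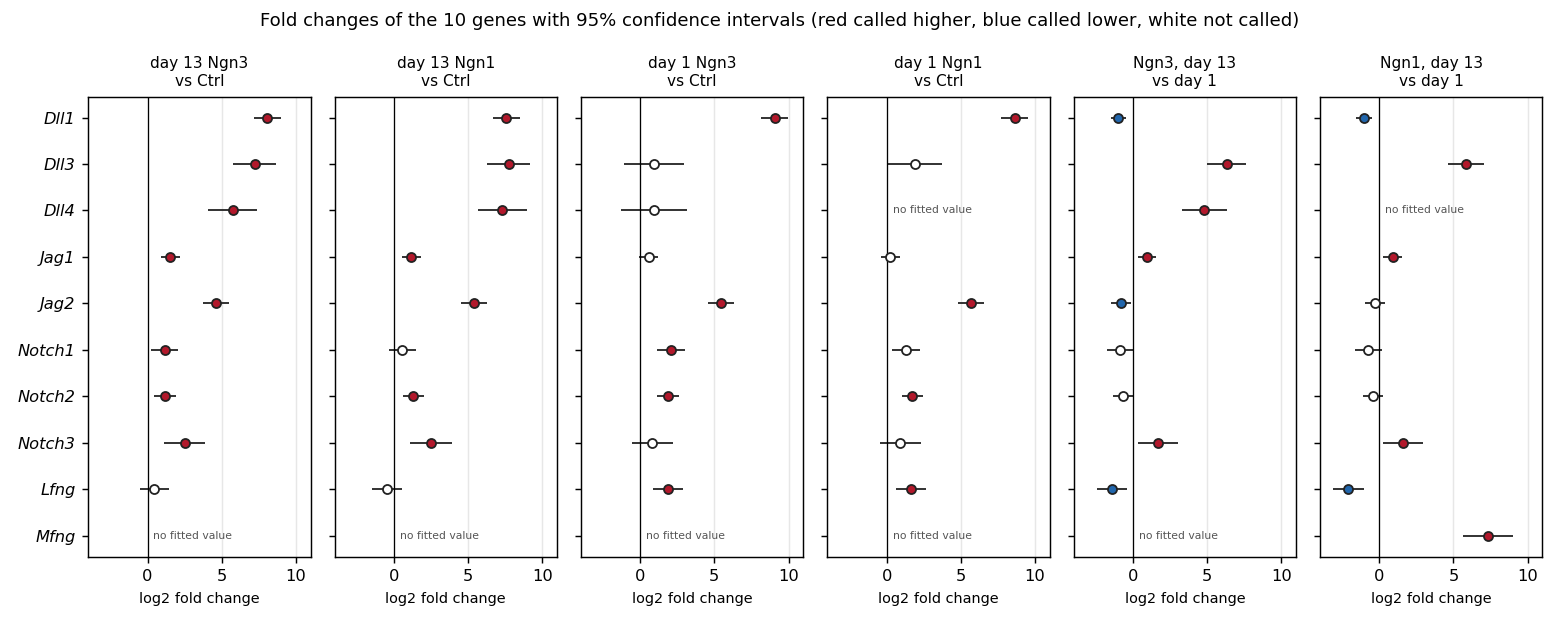
Log2 fold changes of the 10 genes with 95% confidence intervals in the 4 comparisons with Ctrl and the 2 comparisons of day 13 with day 1. Dll1 and Jag2 are called higher in all 4 comparisons with Ctrl, Dll3 and Dll4 in those of day 13, and no fitted value is drawn where a group had 3 counts or fewer.

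Ngn3 and Ngn1 were then set against each other at the same day, the question being whether the factors differ in this gene family. At day 1, 0 of the 10 genes were called, where 0.0119% of all genes were (2 genes, and 285 at an unadjusted p under 0.05). At day 13, 0 of the 10 were called, where 0.0237% of all genes were (4 genes, and 929 at an unadjusted p under 0.05). At an unadjusted p under 0.05, 1 of the 10 genes passed at day 1 and 3 at day 13, and DESeq2 called 0 at either day. The gene that passed at day 1 was Mfng, with 0 counts over Ngn3 and 6 over Ngn1. Same-letter libraries of the 2 factors deviated together within a day, and with the letter as a block within each day 0 of the 10 genes were called, while the count over all genes at day 13 became 134. Mfng at day 13 had no overlap between the factors, and its log2 fold change of Ngn3 over Ngn1 was -1.51 with a 95% interval of -2.65 to -0.38 (adjusted p = 0.621). Dll4 at day 13 was at -1.58 (-2.70 to -0.46, adjusted p = 0.572) with library b of Ngn3 above library a of Ngn1. Jag2 was at -0.76 (-1.43 to -0.10, adjusted p = 0.767). The intervals of the others at day 13 included 0, with Dll1 at 0.50 (-0.03 to 1.03), Lfng at 0.92 (-0.08 to 1.93), Notch1 at 0.60 (-0.29 to 1.5), Jag1 at 0.35 (-0.27 to 0.97) and Dll3 at -0.52 (-1.43 to 0.39). Notch2 and Notch3 were at -0.13 (-0.83 to 0.57) and -0.01 (-1.32 to 1.30), and each changed sign without library b of Ngn1 (0.16 and 0.76) or a of Ngn3 (0.19 and 0.31), Notch3 also without c of Ngn3 (0.30). At day 1 every library of Ngn3 had more Dll1 than every library of Ngn1, with a log2 fold change of 0.43 (-0.10 to 0.96, adjusted p = 1). The intervals of the other fitted genes at day 1 included 0 too, with Notch1 at 0.75 (-0.14 to 1.64), Jag1 at 0.30 (-0.32 to 0.93), Lfng at 0.24 (-0.73 to 1.21) and Jag2 at -0.23 (-0.89 to 0.43). These intervals come from the fit without pairs. By letter, at day 13 Dll1 and Lfng were higher and Dll3, Dll4, Jag2 and Mfng lower in Ngn3 than in Ngn1 in 3 of 3 pairs. With the block within the day Dll4 was at -1.54 (adjusted p = 0.0623), Mfng at -1.39 (adjusted p = 0.103), Jag2 at -0.71 (adjusted p = 0.175), Lfng at 0.84 (adjusted p = 0.194), Dll1 at 0.47 (adjusted p = 0.41) and Dll3 at -0.55 (adjusted p = 0.45). Whether the change between the days differed between the factors was tested as an interaction: 0 of the 10 genes were called by edgeR, where 0% of all genes were (470 genes at an unadjusted p under 0.05). Of the 10 genes 1, Dll4, had an unadjusted p under 0.05, and DESeq2 called 0 of the 10. Dll4 had only 8 counts over Ngn3 and 1 over Ngn1 at day 1.

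Of 53 other genes of the pathway listed by role, 51 passed the filter. At day 1, 8 were called higher and 6 lower in Ngn3, and 7 and 4 in Ngn1. At day 13, 25 were called higher and 10 lower in Ngn3, and 25 and 9 in Ngn1. Their median log2 fold change was 0.09 and 0.04 at day 1 and 0.62 and 0.68 at day 13 (Ngn3 and Ngn1). In either direction 35 and 34 of the 51 were called at day 13, where 57.6% and 59.3% of all genes were, and 14 and 11 at day 1, where 12.8% and 12.2% of all genes were (Ngn3 and Ngn1).

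**Figure D5:**
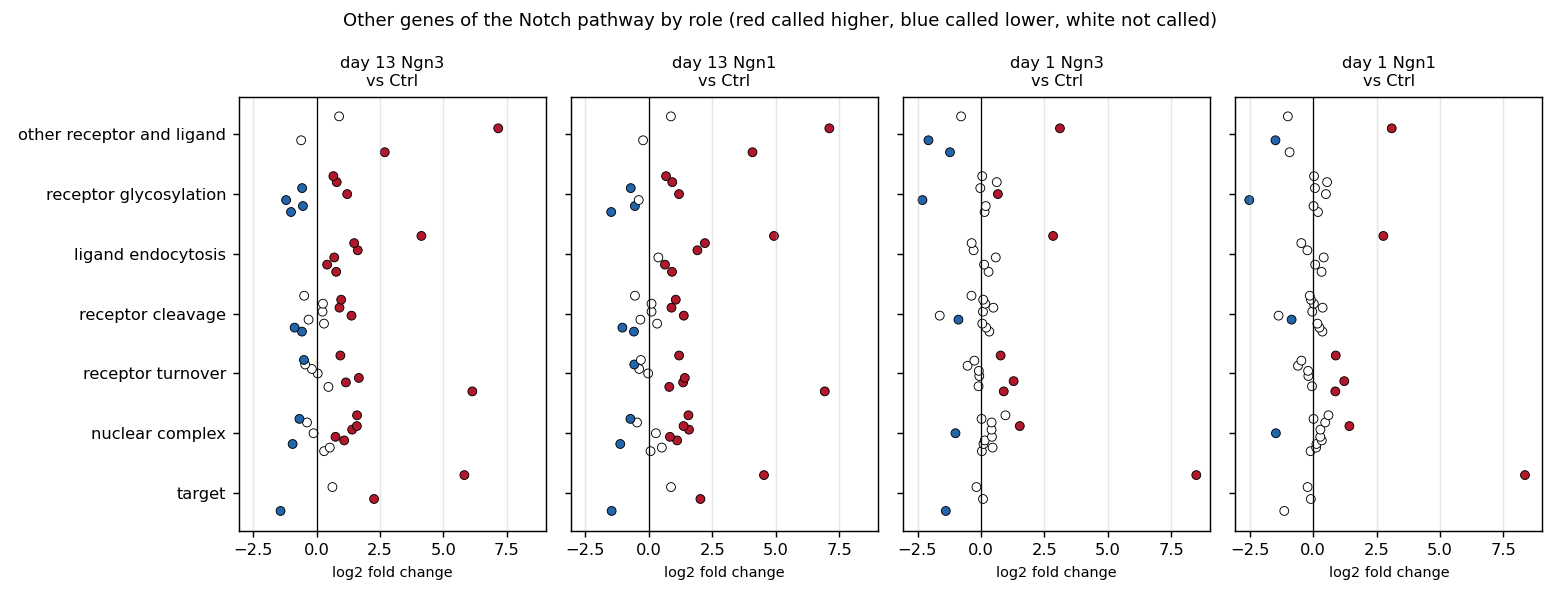
Log2 fold changes against Ctrl of the other Notch pathway genes, 1 point per gene, by role and comparison. Heyl is the point farthest right at day 1 (8.49 in Ngn3 and 8.35 in Ngn1), and 6 and 5 of 6 ligand endocytosis genes are called higher at day 13 (Ngn3 and Ngn1); genes with 3 counts or fewer in a group are not drawn.

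Among the ligand-like genes, Dner, a neuronal transmembrane protein related to Notch ligands, averaged 113 ± 41.7 CPM in Ngn3 and 110 ± 32.3 CPM in Ngn1 at day 13, 6.82 ± 3.07 and 6.73 ± 4.82 CPM at day 1, and 0.786 ± 0.107 CPM in Ctrl (SD, n = 3). It rose against Ctrl at both days, by 7.16 ± 0.57 and 7.12 ± 0.57 at day 13 and by 3.11 ± 0.53 and 3.10 ± 0.53 at day 1 (adjusted p = 2.22e-07, 2.13e-07, 0.00101 and 0.00106). Dlk1, a membrane protein that lacks the receptor-binding domain of Delta ligands, averaged 609 ± 290 CPM in Ngn3 and 1608 ± 590 CPM in Ngn1 at day 13, 40.6 ± 13.5 and 49.7 ± 7.97 CPM at day 1, and 94.6 ± 13.7 CPM in Ctrl. It rose at day 13 (2.69 ± 0.36, adjusted p = 1.8e-05, and 4.09 ± 0.38, adjusted p = 6.98e-07) and fell at day 1 in Ngn3 (-1.22 ± 0.35, adjusted p = 0.0288). Notch4, the receptor outside the 10 genes, was not called against Ctrl and averaged at most 1.57 ± 0.342 CPM, in Ngn3 at day 13.

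Ligands must be taken up from the surface to pull on the receptor, and 6 genes of this step were listed. At day 13 all 6 rose in Ngn3, where 31.2% of all genes were called higher, and 5 of 6 rose in Ngn1, where 32.5% were, while at day 1 only Neurl1b, a ubiquitin ligase for ligands, was called with each factor. Neurl1b rose by 4.13 ± 0.59 in Ngn3 and 4.93 ± 0.61 in Ngn1 at day 13 (adjusted p = 3.41e-05 and 7.79e-06) and by 2.84 ± 0.59 and 2.77 ± 0.59 at day 1 (adjusted p = 0.00402 and 0.00493). Mib2, another ligase of ligands, averaged 66.7 ± 6.46 CPM in Ngn3 and 81.8 ± 3.39 CPM in Ngn1 at day 13, against 21.6 ± 7.98 CPM in Ctrl (adjusted p = 0.000202 and 4.85e-05). Mib1, a further ligase of ligands, rose in Ngn3 at day 13 (0.70 ± 0.21, adjusted p = 0.00937) and was not called in Ngn1 (0.38 ± 0.21, adjusted p = 0.126).

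Genes that act on the receptor were called in both directions at day 13, as were all genes (31.2% higher and 26.4% lower in Ngn3, 32.5% and 26.8% in Ngn1). Of 10 receptor cleavage genes, 3 rose and 2 fell in Ngn3 and likewise in Ngn1, so 5 of 10 were called where 57.6% and 59.3% of all genes were. The 2 that fell were Adam10 (-0.57 ± 0.17, adjusted p = 0.00763, and -0.58 ± 0.17, adjusted p = 0.00675) and Adam17 (-0.86 ± 0.21, adjusted p = 0.00218, and -1.04 ± 0.21, adjusted p = 0.000537), the proteases that cut the receptor at the surface. Psen2 and Ncstn, subunits of the gamma-secretase that makes the inner cut, rose by 0.97 ± 0.24 and 0.90 ± 0.21 in Ngn3 (adjusted p = 0.00313 and 0.00174). Aph1c was the third, and its counts can be shared with its near-identical copy Aph1b. Of 7 receptor glycosylation genes, 3 rose and 4 fell in Ngn3 and 3 rose and 3 fell in Ngn1. Pofut1, which adds the fucose that Fringe enzymes extend, was among those that rose (1.21 ± 0.17 and 1.19 ± 0.17, adjusted p = 3.12e-05 and 3.38e-05). Rfng, the third Fringe gene, rose by 0.79 ± 0.25 in Ngn3 (adjusted p = 0.012) and 0.93 ± 0.25 in Ngn1 (adjusted p = 0.00454) at day 13 and had 12.1 ± 4.05 CPM in Ctrl. Of 9 receptor turnover genes, 4 rose and 1 fell in Ngn3 and 5 rose and 1 fell in Ngn1, and Numbl, a relative of the Notch inhibitor Numb, rose at both days with both factors.

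Of 11 genes of the nuclear complex, 5 rose and 2 fell at day 13 with each factor, so 7 of 11 were called where 57.6% and 59.3% of all genes were. At day 1 the coactivator Maml2 fell, with a log2 fold change of -1.0 ± 0.27 in Ngn3 (adjusted p = 0.0217) and -1.47 ± 0.27 in Ngn1 (adjusted p = 0.00191). Rbpj, the DNA-binding factor of the pathway, was not called against Ctrl, and was lower at day 13 than at day 1 (-0.80 ± 0.28 in Ngn3, adjusted p = 0.0254, and -0.94 ± 0.28 in Ngn1, adjusted p = 0.0101). Of 6 listed Notch targets, 4 passed the filter, and they did not share a direction. Heyl averaged 18.3 ± 1.98 CPM in Ngn3 and 7.55 ± 3.52 CPM in Ngn1 at day 13, 116 ± 59.9 and 105 ± 40.7 CPM at day 1, and 0.314 ± 0.227 CPM in Ctrl. Hes1 averaged 18.3 ± 1.21 and 17.8 ± 8.41 CPM at day 13, 18.8 ± 7.23 and 22.3 ± 9.21 CPM at day 1, and 49.0 ± 5.91 CPM in Ctrl, and fell in all but Ngn1 at day 1 (adjusted p = 0.00529, 0.00423, 0.026 and 0.0658). Hey1 rose at day 13, by 2.27 ± 0.39 in Ngn3 (adjusted p = 0.00016) and 2.04 ± 0.39 in Ngn1 (adjusted p = 0.000368). Hes5 and Nrarp did not pass the filter, and Hes5 had 9 counts over Ngn3 and 2 over Ngn1 at day 13, 0 and 3 at day 1, and 0 over Ctrl.

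The genes with the most similar profile were found as the smallest root mean square difference of log2(CPM + 1), each centred on its own mean, over the 15 libraries and 14379 genes. For Dll3 they were Cspg5 (0.246), Lhfpl4 (0.270) and Scg3 (0.276), for Dll4 Trim67 (0.168), Rit2 (0.173) and Chrna4 (0.206), and for Mfng Celf5 (0.288), Actl6b (0.289) and Mapk10 (0.298). For Dll1 the nearest were Btbd17 (0.614), Cbfa2t3 (0.622) and Notum (0.687). Those of Jag2 were Sema6d (0.465), Ankrd33b (0.523) and Tbc1d9 (0.526), and those of Lfng were Stc1 (0.419), Traf5 (0.444) and Cep85 (0.457). Jag1 had Ttc17 (0.247), Neo1 (0.278) and Tmem131l (0.287). Notch1 and Notch2 shared Pitpnm2 as the nearest (0.306 and 0.284), followed by Arhgef18 (0.362) and Shank2 (0.375) for Notch1, and Sipa1l3 (0.303) was also near Notch2. Notch3 had Map1a (0.328), Pcdhgc3 (0.364) and Fbxo10 (0.388). These differences were not scaled to a gene's own spread, the root mean square of its centred profile. That spread ran from 0.658 for Jag1 to 2.18 for Dll1, so the differences do not rank these genes by closeness.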

How the data were processed

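The authors deposited 1 table of raw read counts per gene for 15 libraries. The submitters' processing notes name CASAVA, HISAT2, featureCounts and the build mm10. The sources used here give no versions, annotation or strand setting. Without the strand setting, reads of a gene and an overlapping antisense gene cannot be told apart. GENCODE M21 named 42548 of 43432 IDs, and the 884 unnamed IDs held 0.120% of counts. The counts were tested with edgeR 4.0.16 (quasi-likelihood F test, TMM scaling, filterByExpr, a mean per group over all 15 libraries), with Benjamini-Hochberg adjustment over the 16872 genes that passed. SE is the absolute log2 fold change divided by the square root of F, and CPM uses TMM-scaled totals. A group floor of 3 counts was 0.0526 to 0.0635 CPM; intervals on ratios cover counting error only.

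The members and lists (other pathway genes, and markers of fibroblasts, neurons, endothelium, pericytes and smooth muscle, macrophages and glia) were chosen with earlier results of these data known. Genes named are the 10 members, listed pathway genes and the 3 nearest profiles of each member with a mean CPM of at least 1 in a group. The profiles compared were those of tested genes with a symbol, leaving out predicted, clone-named and mitochondrially encoded genes. Values of 1 listed gene are not reported here. Nothing in the labels says that the libraries came from separate cultures, so p-values measure the spread between libraries, which may be technical. Letters were checked as pairs: same-letter libraries of both factors correlated in their deviations from group means (0.325 to 0.539 at day 1, 0.521 to 0.580 at day 13), and these were the only group pairs with every same-letter value over 0.1, the bar used for pairing. Between Ctrl and day 1 the same-letter values were 0.0564 to 0.321 for Ngn3 and 0.0509 to 0.364 for Ngn1, and between the days of Ngn3 0.0648 to 0.242. Alternatives were DESeq2 1.42.0, other scalings, no filter, only the groups compared, a replicate block and each library left out. The main fit was also run on counts simulated from its own estimates of spread, for Ngn1 at day 1 against Ctrl. The genes changed there averaged well above 0 counts, and no spread was shared by letter. That run therefore does not bear on genes near 0 or on the letters.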

Additional observations from a re-analysis of the deposited data

How the results depend on the processing

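Every number of the 10 genes called stayed within 1.5 times its value above under the alternatives run, with 3 to 9 called against Ctrl when each library was left out in turn. Beyond the lost calls given above, the block on the replicate letter over all 15 libraries called Notch1 higher in Ngn1 at day 1 (1.22, adjusted p = 0.0281) and Notch1 (-0.93) and Notch2 (-0.75) lower at day 13 than at day 1 in Ngn3. Without the 4 b libraries, calls were lost with a fold change no smaller for Lfng at day 1 (2.02 in Ngn3, adjusted p = 0.0547, and 1.75 in Ngn1, adjusted p = 0.0969) and, between the days in Ngn3, for Jag2 (-0.97) and Lfng (-1.65). They were lost with a smaller one for Notch1 (0.75) and Notch2 (0.64) in Ngn3 at day 13 and for Jag1 between the days (0.78 in Ngn3, 0.65 in Ngn1). Uncalled values whose sign changed when libraries were left out were Jag1 in Ngn1 at day 1 (-0.058 to 0.63), Dll3 in Ngn3 at day 1 (-0.32 to 1.33, and -0.32 without the 4 b libraries), Lfng in Ngn3 at day 13 (-0.019 to 0.85), and Ngn3 over Ngn1 for Notch2 (-0.032 to 0.29), Notch3 (-0.66 to 0.56, and 0.016 without the 4 b libraries) and Lfng (-0.063 to 0.40) at day 1 and for Notch2 (-0.65 to 0.19) and Notch3 (-0.98 to 0.76) at day 13. The genes called over the whole table differed most for Ngn3 against Ngn1 at day 13, with 4 in the fit used here, 86 with DESeq2, 37 without the filter, 2 with only these groups, 134 with the block within each day and 2 without the 4 b libraries. At day 1 that comparison had 2, and 4 with DESeq2 or the block within each day, and the interaction had 0, and 2 with DESeq2. Against Ctrl at day 1 the count was 1313 in Ngn3 and 1280 in Ngn1 without the 4 b libraries, against 2152 and 2054. Leaving out 1 library gave 1507 to 1792 in Ngn3 and 1314 (without library b of Ngn1) to 1660 in Ngn1, and 2 to 6 for Ngn3 against Ngn1 at day 13. With only the groups compared, Dll3, Dll4 and Mfng did not pass the filter at day 1. Depth limits Dll3, Dll4 and Mfng there and in Ctrl, where a library had 9 counts or fewer. It also limits Dll1 and Jag2 in Ctrl, which had at most 3 and 9 counts in a control library. The cause of these differences was not tested.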
